A study of Mus musculus with 2 samples.

Results

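The cluster that begins with Mir322 is a group of 7 microRNA genes that lie close together on mouse chromosome X. Its members were found by matching the Ensembl gene IDs of the count tables to GENCODE symbols, and all 7 (Mir322, Mir503, Mir351, Mir542, Mir450-2, Mir450-1 and Mir450b) were among the 1973 genes measured. RNA shorter than 30 bases had been sequenced from skeletal muscle of newborn mice (strain B6NCrl, age 0 days, sex not collected). There was 1 group of 2 libraries, each from a portion of muscle of 1 pup, numbered as biological replicates 1 and 2. No treatment or genotype was compared, so the levels of the members, and how far the 2 libraries differ, are described. Both libraries carry the same donor record, so what follows shows only how these 2 libraries differ, which may be in part technical.

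MicroRNAs are cut from hairpins in longer transcripts, and bases 2 to 8 of the mature strand, the seed, choose most of the messenger RNAs they lower. Genes of a cluster are usually transcribed together as 1 precursor and then processed one hairpin at a time. miR-322 (miR-424 in humans) and miR-503 belong to the wider miR-15/16 family, which lowers cyclins and other cell-cycle proteins. In cultured myoblasts both are induced during differentiation and lower the phosphatase Cdc25A, which helps the cells leave the cell cycle. miR-351 carries the seed of the miR-125 family, and miR-542-3p is known to lower the survival protein survivin.

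The sequences show which members can be told apart by their reads and which other genes share their seeds. Shown 5′ to 3′ from RefSeq (GRCm38.p6, the assembly of mm10), with the seed in capitals, are the arms usually named as the main product of each gene. The tables count genes and do not separate arms, so which arm the reads came from is not known.
miR-322-5p: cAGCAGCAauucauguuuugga
miR-503-5p: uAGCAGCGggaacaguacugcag
miR-351-5p: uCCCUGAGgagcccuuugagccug
miR-542-3p: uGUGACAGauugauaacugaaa
miR-450a-5p: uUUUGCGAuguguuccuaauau
miR-450b-5p: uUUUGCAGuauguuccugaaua

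These arms carry 6 different seeds. miR-322-5p and miR-503-5p share bases 2 to 7 and differ at 1 seed base, A8G (miR-322-5p first, counted from the 5′ end). miR-450a-5p and miR-450b-5p differ at G7A and A8G. For comparison, relatives on other chromosomes are shown, whose seeds are identical to that of miR-322-5p (miR-15a-5p, miR-16-5p and miR-195a-5p) or that of miR-351-5p (miR-125a-5p and miR-125b-5p).
miR-15a-5p: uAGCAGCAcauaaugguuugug
miR-16-5p: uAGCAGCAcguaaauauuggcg
miR-195a-5p: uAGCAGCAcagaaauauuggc
miR-125a-5p: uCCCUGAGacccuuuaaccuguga
miR-125b-5p: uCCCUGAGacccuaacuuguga

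Mir450-1 and Mir450-2 both encode miR-450a-5p. The tables set reads that fit more than 1 place apart from the gene counts, so reads of this arm could not be given to either. Their hairpins are shown with the stretch of 25 bases that they share in capitals.
Mir450-1: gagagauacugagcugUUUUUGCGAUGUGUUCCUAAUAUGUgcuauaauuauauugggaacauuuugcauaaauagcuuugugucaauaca
Mir450-2: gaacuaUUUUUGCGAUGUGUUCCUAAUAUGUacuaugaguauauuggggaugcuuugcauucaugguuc

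The 3p arms of the 3 Mir450 genes do differ, and are shown because they are where reads of Mir450-1 and Mir450-2 can be told apart.
miR-450a-1-3p: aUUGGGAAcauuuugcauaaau
miR-450a-2-3p: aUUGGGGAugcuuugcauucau
miR-450b-3p: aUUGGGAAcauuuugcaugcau

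A stretch of 20 bases or more recurs in another, non-overlapping microRNA gene for these 2 members and for 0 of the other 5. The longest stretch that Mir322, Mir503, Mir351, Mir542 or Mir450b shares with a gene outside the cluster is 13 bases. Mir450-1 and Mir450b share 19 bases. When the hairpins were aligned end to end, Mir450-2 matched Mir450-1 at 87.0% of its bases, and Mir450b matched them at 76.8% and 74.4% of the shorter hairpin. For the other pairs of members this figure lay at 66.2% or below. The Mir450 hairpins are also poorer in G and C, at 30.5% to 36.2% against 50.5% to 54.9% in the other 4.

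All members lie on the minus strand within 6353 bases of chromosome X (mm10). In the direction of transcription, Mir322 comes first at chrX:53054255-53054349, followed by Mir503 at chrX:53053984-53054054 and Mir351 at chrX:53053255-53053353. After a gap of 3767 bases come Mir542 at chrX:53049403-53049487, Mir450-2 at chrX:53048299-53048367, Mir450-1 at chrX:53048154-53048244 and Mir450b at chrX:53047997-53048078. In GENCODE M21 no longer gene contains any of them: they lie around the noncoding gene Gm28730 and downstream of the noncoding gene C430049B03Rik. RefSeq extends C430049B03Rik from 53053112 to 53057190, so that Mir322, Mir503 and Mir351 fall inside it and the other 4 outside it. The protein-coding neighbours are Hprt and Plac1.

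The tables account for 16398945 reads in replicate 1 and 21037937 in replicate 2. Annotated strands of microRNA genes hold 7955914 of them in replicate 1 and 10816295 in replicate 2, and levels are given as CPM, counts divided by that total and multiplied by 1000000. A count of 0 would allow up to 0.377 and 0.277 CPM (3 counts), and limits and intervals cover counting error only. All 4 skeletal muscle markers (Mir206, Mir133b, Mir208b and Mir499) were detected, with 109261 and 122717 summed CPM. Markers of other cells were present as well. Summed over each list in replicates 1 and 2, endothelial Mir126a had 44986 and 47428 CPM, the 2 smooth muscle genes 31531 and 28507, and the 2 cartilage genes 2205 and 1968. The 3 leukocyte genes had 692 and 516 CPM, the 2 erythroid genes 583 and 286 and the 7 epithelial genes 531 and 334. The hepatic Mir122 had 86.4 and 153 CPM and the cardiac Mir208a 15.5 and 12.1. Of 5 neuronal genes 0 reached the count minimum, with Mir124a-1, Mir124a-2 and Mir124a-3 at 0 counts. All 5 share sequence with their copies, whose reads were set apart, so these counts do not show whether the genes were expressed. The part that any of these cells play in the levels below was not tested, and in whole muscle fewer cells of a type cannot be told apart from less RNA per cell.

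Counts on the cluster came to 335789 in replicate 1 and 395649 in replicate 2. That is 4.22% of all microRNA counts in replicate 1 (95% exact binomial interval 4.21% to 4.23%) and 3.66% in replicate 2 (3.65% to 3.67%). Reads that fit more than 1 place are in neither the cluster's counts nor the total. Of the 365 detected genes 78 share a stretch of 20 bases with another gene, and 2 of these are members. The shares may therefore be too high, which the intervals do not cover. All 7 members had at least 10 counts in both libraries, a level reached by 18.5% of all genes in the tables, and 4 exceeded 1000 CPM in both, against 4.11% of all genes. The members kept to the annotated strand: 7 of 7 had 0 counts on the opposite one in both libraries, as had 324 of the 365 genes detected.

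The cell-cycle regulator Mir322 was the highest member. It had 212040 counts (26652 CPM) in replicate 1 and 257431 counts (23800 CPM) in replicate 2. The mean of 25226 CPM ± 2016 (SD, n = 2) gave it rank 13 of the 365 detected genes, and it held that rank in each library. Ranks here and below rest on reads that fit 1 place. Of the 365 genes 78 share a stretch of 20 bases with another gene and may stand too low, so the rank of Mir322 may be too high. Beside the most abundant gene in these counts, muscle-specific Mir206, Mir322 stood at 24.9% of its counts in replicate 1 and 19.7% in replicate 2. Mirlet7g and Mir99a stood next above it with means of 28228 and 26445 CPM, and the 2 libraries of Mir99a (27816 and 25074 CPM) overlapped those of Mir322. Next below were Mir434 and Mir379, at 18904 and 18710 CPM. With 2 libraries, no likeness of pattern across samples could be computed.

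**Figure D1:**
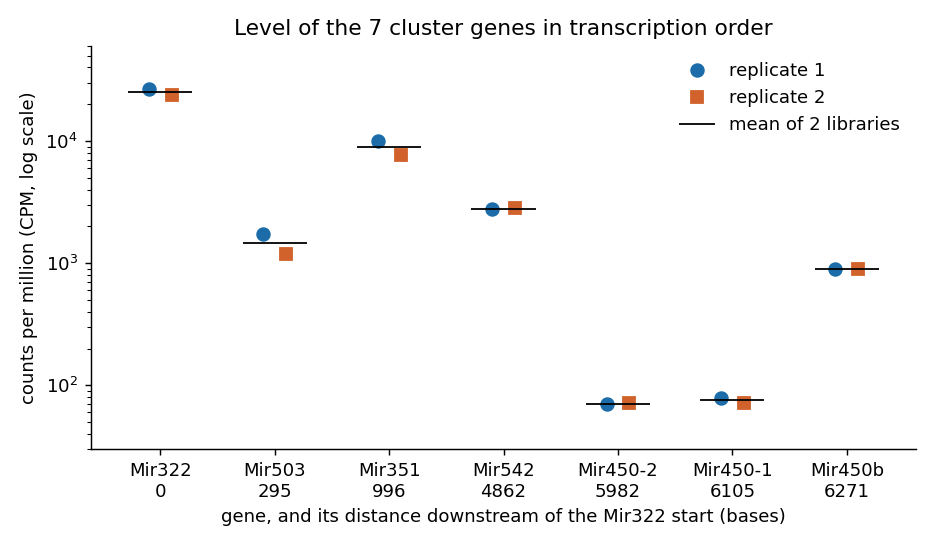
Level of each cluster gene in CPM (log scale) in the 2 libraries, with genes in the direction of transcription and their distance in bases from the start of Mir322. Blue circles are replicate 1, orange squares replicate 2 and bars the mean; the first gene, Mir322, is the highest at 25226 CPM and Mir450-2 the lowest at 70.8 CPM.

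Mir503, which lies 200 bases downstream of Mir322 and differs from it by 1 seed base, was far lower. It had 13823 counts (1737 CPM) in replicate 1 and 12942 counts (1197 CPM) in replicate 2, with rank 72 by its mean of 1467 CPM ± 382 (SD, n = 2). Of the members it had the largest spread relative to its mean, 26.1%. Mir322 exceeded it 15.3-fold in replicate 1 and 19.9-fold in replicate 2.

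Mir351, which carries the miR-125 seed, was the second highest. Its 79476 counts (9990 CPM) in replicate 1 and 83643 counts (7733 CPM) in replicate 2 gave a mean of 8861 CPM ± 1596 (SD, n = 2) and rank 23. Both libraries lay well below those of Mir322, which was 2.67-fold and 3.08-fold higher in replicates 1 and 2.

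Mir542 had nearly the same CPM in both libraries, which holds with library totals but not after the scaling used for the ratios below (log2 ratio -0.26). It had 22109 counts (2779 CPM) in replicate 1 and 30378 counts (2809 CPM) in replicate 2, a mean of 2794 CPM ± 20.9 (SD, n = 2) and rank 53. It stood above Mir503 in both libraries, 1.60-fold and 2.35-fold.

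Mir450b had 7152 counts (899 CPM) in replicate 1 and 9707 counts (897 CPM) in replicate 2. As for Mir542, these are nearly equal with library totals only, and the scaled log2 ratio was -0.24. Its mean was 898 CPM ± 1.07 (SD, n = 2), at rank 94. The pair that encodes miR-450a was lowest. Mir450-1 had 631 counts (79.3 CPM) and 776 counts (71.7 CPM) in replicates 1 and 2, and Mir450-2 had 558 counts (70.1 CPM) and 772 counts (71.4 CPM). Their means were 75.5 CPM ± 5.35 and 70.8 CPM ± 0.875 (SD, n = 2), with ranks 189 and 192. Because reads of miR-450a-5p fit both genes, these 2 values are lower limits. Mir450b exceeded Mir450-1 11.3-fold and 12.5-fold in counts that fit 1 place, an upper limit for the same reason.

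By mean level the order was Mir322, Mir351, Mir542, Mir503, Mir450b, Mir450-1 and Mir450-2. Up to Mir450b, no library of a gene overlapped those of its neighbours in this order. Mir450-1 was above Mir450-2 in both libraries in counts that fit 1 place, by 1.13-fold and 1.01-fold. It held 53.1% of these counts of the pair in replicate 1 (95% exact interval 50.2% to 55.9%) and 50.1% in replicate 2 (47.6% to 52.7%), an interval that excludes equal parts only in replicate 1. Reads of miR-450a-5p are in neither count, so these parts do not show which of the 2 genes was the higher. The members' mature arms are all 21 to 24 bases long, so counts were not divided by length.

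**Figure D2:**
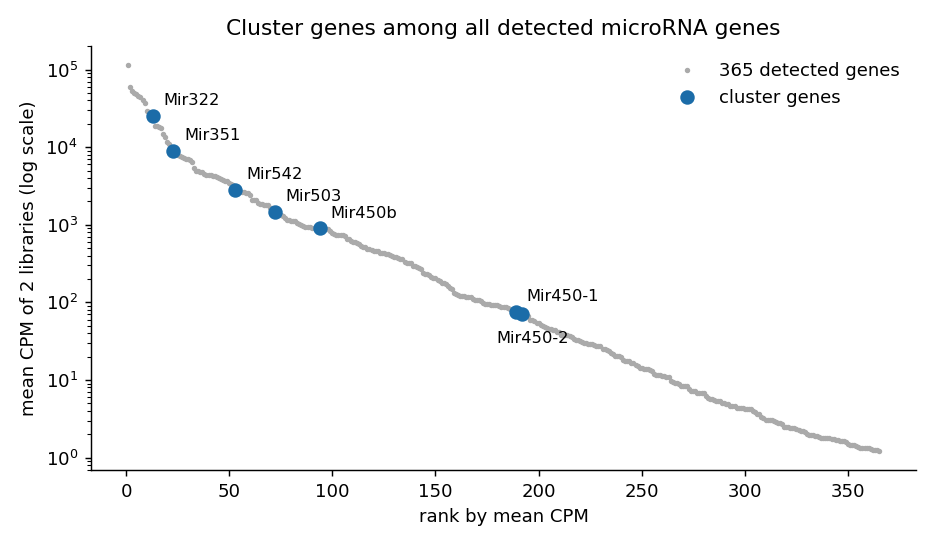
Mean CPM (log scale) of all 365 detected microRNA genes against their rank, with the 7 cluster genes in blue. Mir322 is at rank 13 and Mir351 at rank 23, Mir542, Mir503 and Mir450b lie between ranks 53 and 94, and the miR-450a pair is at ranks 189 and 192.

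As parts of the cluster, Mir322 took 63.1% of its counts in replicate 1 and 65.1% in replicate 2, and Mir351 23.7% and 21.1%. The pair took 86.5% ± 0.431 together (SD, n = 2), while Mir542 and Mir503 added means of 7.13% and 3.69% and the 3 Mir450 genes together 2.66% ± 0.255. The highest member exceeded the lowest 380-fold in replicate 1 and 333-fold in replicate 2. This span rests on the miR-450a pair, since without both genes it was 29.6-fold and 26.5-fold.

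For comparison, microRNA genes on 1 strand with at most 10 kb between neighbours were joined into clusters, and 12 clusters had at least 3 detected genes. By summed mean CPM (39393) this cluster was the third, after 2 clusters of chromosome 12, led by Mir487b and Mir431. Its span from highest to lowest mean level, 357-fold, was the fifth widest, an upper limit because the lowest gene's level is a lower one, where the other 11 clusters ranged from 3.12-fold to 32912-fold with a median of 48.7-fold. Without the miR-450a pair the mean span was 28.1-fold, below that median, but genes that share sequence were not left out of the other clusters. Some of their genes do share sequence, such as Mir19b-1, the lowest of the Mir17 cluster. Their spans can thus be upper limits too, and 28.1-fold and the median do not compare like with like. The top gene of the Mir322 cluster held 64.0% of the detected genes' summed level, against a median of 48.9% in the others. These ranks are descriptions with no test.

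**Figure D3:**
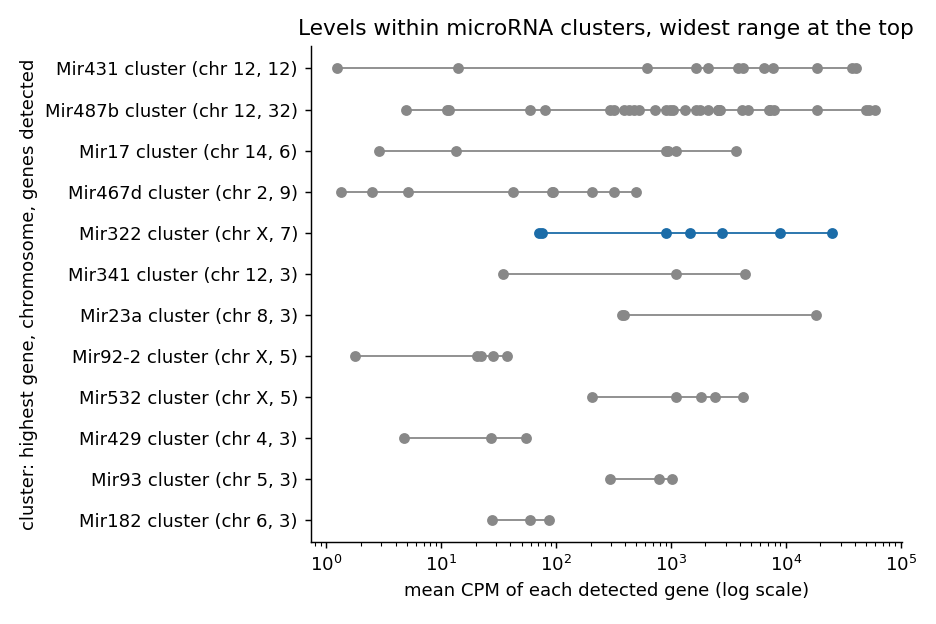
Mean CPM (log scale) of every detected gene in 12 microRNA clusters, each named by its highest gene with the chromosome and the number of detected genes in brackets; clusters are ordered by their span. In the cluster of Mir322 (blue) 5 genes lie between 898 and 25226 CPM and the pair Mir450-1 and Mir450-2 stands apart below 100 CPM.

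Between the libraries, 0 of the 7 members passed a test with an adjusted p under 0.05 and at least a 2-fold difference, against 7.4% of the 365 detected genes. The test was an exact binomial one, two-sided, on counts scaled by trimmed means (TMM), and p-values were adjusted by Benjamini-Hochberg across the detected genes. With no fold minimum 6 of 7 passed the adjusted p, against 61.1% of all detected genes, and 6 of 7 had an unadjusted p under 0.05, against 63.3%. Of the 6, 2 were higher in replicate 1 and 4 in replicate 2, against 30.1% and 31% of detected genes. This split rests on the scaling: with library totals 3 members passed the adjusted p, 3 higher in replicate 1 and 0 in replicate 2, against 47.9% and 16.4% of detected genes. With a count minimum of 1, 4 members passed it, and the share of all genes at that setting is not given here. The test has only counting error in it, so abundant genes pass it at small differences, and it compares 2 libraries and not conditions.

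The log2 ratio of replicate 1 over replicate 2 after TMM scaling was -0.08 for Mir322 (95% exact counting interval -0.09 to -0.07), 0.29 for Mir503 (0.26 to 0.33) and 0.12 for Mir351 (0.11 to 0.14). For the downstream members it was -0.26 for Mir542 (-0.29 to -0.24), -0.27 for Mir450-2 (-0.43 to -0.11), -0.10 for Mir450-1 (-0.25 to 0.05) and -0.24 for Mir450b (-0.29 to -0.20). The largest of these differences, that of Mir503, was 1.22-fold, and 46.8% of all detected genes differed less. The median size of the log2 ratio was 0.24 over the members and 0.31 over all detected genes.

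With library totals in place of TMM, the median log2 ratio of all detected genes moved from 0.01 to 0.26 and every member moved by 0.25. Relative to the median of all genes, the members therefore kept their places, but the sign of 3 turned. Mir322 became 0.16, Mir450-1 0.14 and Mir450b 0.00, while Mir503 reached 0.54 and Mir351 0.37. Mir542 and Mir450-2 stood at -0.02 and -0.03 with intervals that include 0. Whether Mir322 was higher in replicate 1 or in replicate 2 thus depends on the scaling.

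Ratios between members do not depend on it. There were 0.625 counts of Mir503 for each count of Mir542 in replicate 1 and 0.426 in replicate 2. For Mir351 these figures were 3.59 and 2.75, and for Mir322 9.59 and 8.47. Mir542 and Mir450b stood at 3.09 and 3.13 to 1. Within the upstream genes, Mir322 and Mir503 stood at 15.3 and 19.9 to 1, a larger shift between the libraries than that of Mir322 against Mir542. The ratio of Mir450-1 lay close to that of Mir322, with overlapping counting intervals. The 2 libraries give no estimate of how often such a difference occurs between pups.

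**Figure D4:**
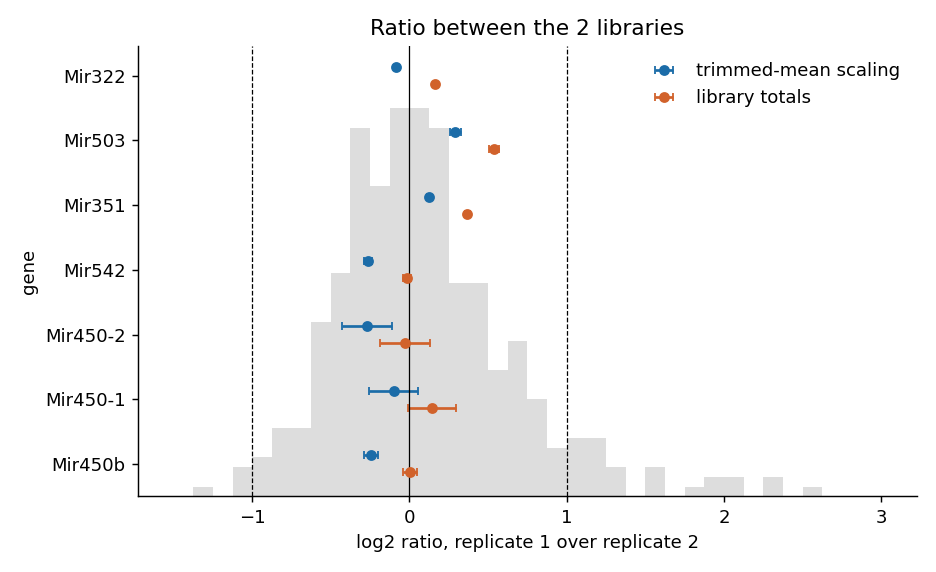
Log2 ratio of replicate 1 over replicate 2 for each member, with 95% exact counting intervals, after trimmed-mean scaling (blue) and with library totals (orange); the grey histogram, scaled to the panel height, shows all 365 detected genes with trimmed-mean scaling and the dashed lines mark a 2-fold difference. All members lie within the 2-fold lines, with Mir503 highest at 0.29 and Mir450-2 lowest at -0.27 (TMM), and library totals move every member by 0.25.

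Among the cell type markers, 5 of the 7 epithelial genes passed the 2-fold test, all higher in replicate 1, against 6.3% of detected genes. The list's median log2 ratio was 2.03 against -0.10 for the members. Mir203 and Mir205 of this list did not pass and lay below 0, at -0.12 and -0.07. Mir203 alone had 292 and 268 CPM in replicates 1 and 2, of 531 and 334 for the list. The hepatic gene Mir122 passed the 2-fold test too, with a log2 ratio of -1.07, against 1.1% of detected genes higher in replicate 2, but with library totals it did not (-0.83). With library totals, but not with TMM, 1 of the 2 erythroid genes passed it, higher in replicate 1 at 1.07, against 11.2% of detected genes. The part of any of these lists in the members' ratios was not tested. In the list of myogenesis-linked genes 12 of 14 were detected, against 18.5% of all genes. Of the 12, 0 passed the 2-fold test, against 7.4% of detected genes. With no fold minimum 1 was higher in replicate 1 and 7 in replicate 2, against 30.1% and 31%, with a median of -0.20. With library totals these were 3 and 4 genes, against 47.9% and 16.4%, and the median turned to 0.05. Most genes of this list share sequence with other genes, so their counts and ratios rest on the reads that fit 1 place.

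The other detected genes with the seed of miR-322-5p were all lower than Mir322. In counts that fit 1 place, 10 genes of the tables carry AGCAGCA as bases 2 to 8 of a mature arm, 6 of them detected, and Mir322 alone held 87.7% of their counts in replicate 1 and 90.1% in replicate 2. The cell-cycle regulator Mir15a came next with 1667 and 1121 CPM, a range that overlaps that of Mir503, followed by Mir195a with 759 and 732 CPM. Mir16-1 had 767 and 417 CPM, Mir15b 283 and 252, and Mir16-2 254 and 99.7. Mir195b had 0 counts in both libraries. Mir16-1 and Mir16-2 share miR-16-5p, so reads of that arm were set apart and the share of Mir322 is an upper limit. With bases 2 to 7 as the seed, Mir503 joins, and the 2 members held 88.4% and 90.5%.

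In counts that fit 1 place, Mir322 exceeded the summed miR-15/16 group (Mir15a, Mir15b, Mir16-1, Mir16-2, Mir195a, Mir195b and Mir497b) 7.15-fold in replicate 1 and 9.08-fold in replicate 2. The tables hold Mir497b, which had 0 counts on its annotated strand. The gene Mir497 of GENCODE M21, annotated on the other strand there, was not analysed here as a gene of its own. The counts opposite Mir497b were 5384 and 5822, and with them included Mir322 exceeded the group 6.05-fold and 7.53-fold. All 4 folds are upper limits, since reads of miR-16-5p were set apart. Among the group's 5 detected genes, only Mir16-2 passed the 2-fold test between the libraries, against 7.4% of all detected genes. Its log2 ratio was 1.10, and the median of the group was 0.33.

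In counts that fit 1 place, Mir351 was the highest gene with the miR-125 seed. Mir125a, a regulator of growth and differentiation, had 4032 and 2608 CPM, below both libraries of Mir351, which exceeded it 2.48-fold and 2.97-fold. Mir125b-1 had 631 and 526 CPM and Mir125b-2 507 and 406 CPM, both lower limits because they encode the same miR-125b-5p. Mir351 held 65.9% and 68.6% of the counts of genes with this seed, an upper limit for that reason. The seeds of miR-503-5p, miR-542-3p, miR-450a-5p and miR-450b-5p occurred in no other gene of the tables when bases 2 to 8 were used.

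**Figure D5:**
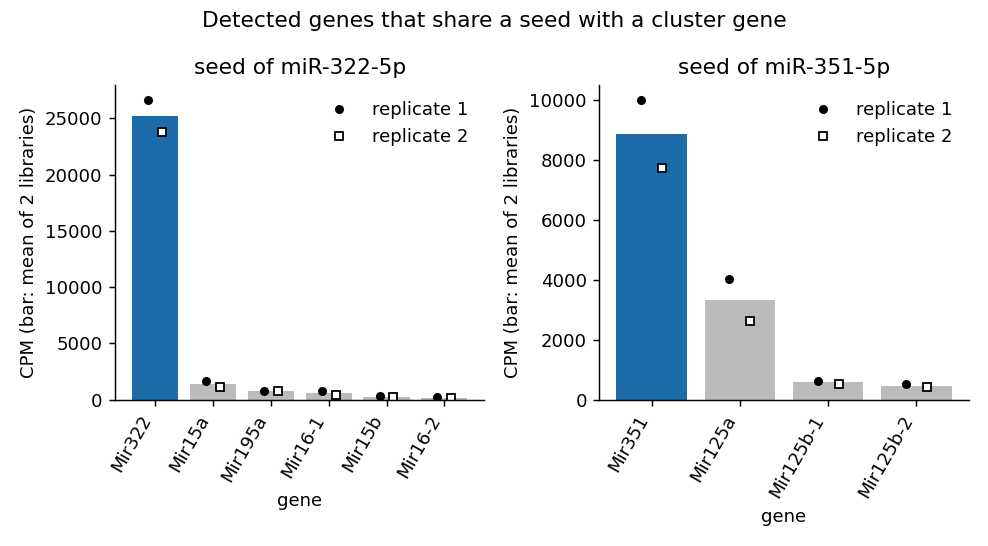
CPM of the detected genes whose named arm has the same bases 2 to 8 as miR-322-5p (left) or miR-351-5p (right); bars are means of 2 libraries, filled circles replicate 1 and open squares replicate 2. Mir322 stands at 25226 CPM against 1394 for Mir15a, and Mir351 at 8861 against 3320 for Mir125a.

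On chromosome X, the cluster was the main source of microRNA reads that fit 1 place. The 120 microRNA genes there took 6.61% of counts in replicate 1 and 5.87% in replicate 2, and the 7 members held 63.8% and 62.3% of these. Some of the other genes, such as Mir92-2 and Mir19b-2, share sequence with genes elsewhere, so the members' part may be too high. Of the 113 other genes 33 were detected. The highest were Mir652 with 4310 and 4375 CPM, Mir532 with 4442 and 4057 and Mir98, a let-7 family gene, with 3769 and 3809, all below Mir351 and above Mir542. Of these 33 genes 4 passed the 2-fold test between the libraries, 2 in each direction, against 7.4% of all detected genes (6.3% higher in replicate 1 and 1.1% in replicate 2). With library totals 6 passed, 6 higher in replicate 1 and 0 in replicate 2, against 11.2% and 0.274%. Their median log2 ratio was 0.04 against -0.10 for the members with TMM, and 0.29 against 0.14 with library totals.

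On the same strand, the proliferation-linked miR-106a-363 cluster lies 305 kb away. Summed over its 6 genes it had 158 CPM in replicate 1 and 63.9 in replicate 2, against 42206 and 36579 for the members. Its 5 detected genes had log2 ratios from 0.19 to 2.30, all above 0. Of them 2, Mir106a (2.30) and Mir20b (1.87), passed the 2-fold test, against 6.3% of detected genes higher in replicate 1. With library totals 4 did, against 11.2%. These genes are also in the chromosome X counts above, as 2 of those 4 with TMM and 4 of those 6 with library totals. The related miR-17-92 cluster on chromosome 14 had a median of 0.34 over 6 detected genes, of which Mir17 had 4666 and 2768 CPM. Of these 6 genes 1 passed the 2-fold test, against 7.4% of detected genes. Mir19b-1, Mir19b-2, Mir92-1 and Mir92-2 share sequence between these 2 clusters, so their single levels are lower limits.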

How the data were processed

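For each of 2 libraries the authors deposited raw read counts of 1973 microRNA genes, on mm10 with GENCODE M4 per the readme text deposited beside them. Which aligner and counter made them is not given in the sources used here. Column 3 was used as the annotated strand, an inference from its holding most counts; the 2 strand columns sum to the first count for every gene. Reads in more than 1 place (28.0% and 26.9% in replicates 1 and 2), unmapped (16.0% and 13.4%) and outside genes (1.60% and 1.43%) stood in 4 separate rows and stayed out of library sizes and tests.

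Names and positions came from GENCODE M21 (1894 of 1973 IDs matched), sequences from RefSeq and from GENCODE transcripts. All 7 members had mature arms in the RefSeq table. Counts of 10 or more in both libraries were called detected. CPM use the total of annotated-strand counts. Ratios used TMM (edgeR 4.0.16, R 4.3.3) and an exact binomial test from scipy 1.17.1, adjusted by the method of Benjamini and Hochberg with a threshold of 0.05. The test was chosen because 1 group of 2 libraries has no residual degree of freedom for a ratio between them. It was checked on simulated counts with counting error only and without TMM. That check cannot show how the test fares with other variation between libraries. Hairpins were aligned with Biopython 1.88 and figures drawn with matplotlib 3.10.9. All members, the miR-15/16 and miR-125 groups, the 3 highest other chromosome X genes and the 2 genes on either side of Mir322 by level were named. Of the 17 fixed myogenesis genes, 14 were analysed; Mir142 and Mir9-1 of the marker lists were not analysed here. Mir497a of the design is Mir497 in GENCODE M21. The members and lists were chosen with earlier results of these data known. Alternatives were other strands, denominators, scalings (DESeq2 1.42.0 among them), count and fold minimums, cluster distances and seeds, genes with shared sequence left out, and each replicate left out.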

Additional observations from a re-analysis of the deposited data

Results flagged for a closer look

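Reads on the strand opposite the annotated gene appeared at Mir497b, in a column that the levels do not use. There were 5384 such counts in replicate 1 and 5822 in replicate 2, above the 3 counts that a count of 0 allows, and 0 on its annotated strand. GENCODE M21 annotates Mir497 there, a gene of the miR-15/16 group. With the counts of both strands as the total these were 604 and 474 CPM.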

How the results depend on the processing

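The cluster's share of counts, 3.94% as reported, was 3.50% with unstranded counts, 1.96% of all reads, 4.44% without Mir206 in the total and 4.70% without genes that share a 20-base stretch. Leaving those genes out does not bring back their reads that fit more than 1 place, so 4.70% may be too high as well. All 7 members were detected under every count minimum tried, as were 591 of the 1973 genes at a minimum of 1 and 278 at 50. The number of members past the between-library test was 0 with TMM and with library totals, against 7.4% and 11.5% of detected genes. It was also 0 with DESeq2 size factors, unstranded counts, count minimums of 1 and 50 and a fold minimum of 1.5. For these settings the share of all genes is not given here. With shares of 7.4% and 11.5%, 0 of 7 does not set the members apart. With no fold minimum 6 passed, against 61.1%. The 357-fold span became 28.1-fold without the miR-450a pair and kept its value at cluster distances of 5 and 50 kb. The log2 ratio turned sign with library totals for Mir322 (0.16), Mir450-1 (0.14) and Mir450b (0.0024), and with a count minimum of 1 for Mir322 (0.0016); TMM then drew on other genes. With DESeq2 size factors, unstranded counts or a minimum of 50, 7 of 7 members kept sign and side of the threshold. Leaving out 1 library at a time, the share ranged from 3.66% to 4.22%, the span from 333-fold to 380-fold, the members' share of their seed families (84.1%) from 82.6% to 85.6% and of chromosome X counts (63.1%) from 62.3% to 63.8%. With 2 libraries these ranges are the single values and show nothing about stability. The seed-family share is the members' part of the counts of all genes with any of their seeds. The seeds of miR-503-5p, miR-542-3p, miR-450a-5p and miR-450b-5p occurred in members only, so there the share is fixed. Reads of miR-16-5p, miR-125b-5p and miR-450a-5p were set apart from it. No paired analysis was possible because the labels give 1 group. Counts were lowest for Mir450-1 and Mir450-2, at 558 to 776 per library, and reads of miR-450a-5p are left out of both at any depth.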
